A study of Medicago sativa with 3 samples.

Results

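The transcripts described here carry the names of enzymes and binding proteins of triterpene saponin, sterol and terpene synthesis in alfalfa. A transcript was a member when the best protein match named amyrin, squalene, cycloartenol, hydroxymethylglutaryl-CoA, mevalonate, a farnesyl or geranyl diphosphate, terpene synthase, deoxy-D-xylulose, linalool or a sterol, and when both the protein and the nucleotide match came from a legume. By this rule 156 of 95646 assembled transcripts were members, out of 52669 with legume matches. The best protein match came from the model legume Medicago truncatula for 127 members, from alfalfa itself for 6, from soybean for 22 and from pea for 1.

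The study sequenced whole-plant RNA from Medicago sativa ssp. falcata, the yellow-flowered alfalfa, to ask which genes respond to sheep grazing and which differ between plants that recover well or poorly from it. The 3 libraries, 1 per group, were the grazed plants of the intolerant population MF200402, the grazed plants of the tolerant population MF200401, and ungrazed plants of the same tolerant population. For each library, RNA of leaves, stems and roots was mixed in equal parts from pools of 10 plants. No library of ungrazed intolerant plants was analysed here.

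Both populations were selected from 1 cultivar for their recovery under grazing and then propagated vegetatively, so they are groups of chosen plants and not single genotypes or near-isogenic lines. Grazed plants were dug a week after the sheep had left. The ungrazed plants stood in a fenced block and were cut to the height of the grazed ones when the sheep were removed, so the ungrazed library came from clipped plants, and grazing and field block cannot be told apart. Difference between populations and response to grazing likewise cannot be told apart in the comparison of the grazed libraries. In bulked tissue, fewer cells of a type and less RNA per cell cannot be told apart either.

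Plants build terpenoids from a common 5-carbon unit that is made by separate routes, the mevalonate pathway of the cytosol and the methylerythritol phosphate (MEP) pathway of the plastid. Farnesyl diphosphate synthase and squalene synthase lead from the cytosolic unit to squalene, squalene epoxidase oxidizes it, and the product is cyclized either by beta-amyrin synthase, toward the saponins for which Medicago species are known, or by cycloartenol synthase, toward membrane sterols and brassinosteroids. Geranyl and geranylgeranyl diphosphates feed monoterpenes, carotenoids, chlorophyll side chains and gibberellins, and terpene synthases make the volatile mono- and sesquiterpenes that many plants release after wounding.

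The libraries held 22.3 M aligned fragments (M stands for 1000000) in intolerant grazed plants, 22.7 M in tolerant grazed plants and 22.8 M in tolerant ungrazed plants. Levels are given as FPKM (fragments aligned to a transcript, scaled by its length in kilobases and by the library total), and sums over several transcripts as fragments per 1000000 aligned. With 1 library per group there is no test across replicates and no p-value, so the ratios compare libraries, and the 95% intervals (exact Clopper-Pearson on the fragments) cover counting error only. A transcript was called higher or lower when its log2 ratio of FPKM was at least 1 in size, with 0.01 in place of an FPKM of 0, and more than 3 fragments were counted in at least 1 of the 2 libraries. Legume-matched transcripts took 88.8% of fragments in intolerant grazed, 80.4% in tolerant grazed and 79.9% in tolerant ungrazed plants. Summed over 12 transcripts for chlorophyll a-b binding proteins, a marker of green tissue, the libraries held 301911, 121852 and 72212 fragments in that order of groups, with none of the 12 at 0 anywhere, and 2 of the 12 were called higher in intolerant than in tolerant grazed plants. CL215.Contig3_All alone held 224373, 66440 and 31700 of them. The 10 Rubisco small subunit transcripts held 294003, 138805 and 161640 fragments, and 6 of them were called higher in the intolerant grazed library. The 43 nodulin transcripts held 21653, 20907 and 39429 fragments, of which Unigene22118_All alone held 8171, 1228 and 15194. Although their sum was lower in tolerant grazed than in tolerant ungrazed plants, 13 of 42 above 3 fragments were called higher there and 3 lower. The median log2 ratio of these 42 was 0.49. By the name leghemoglobin 0 transcripts were matched. The part of these tissue differences in the results below was not tested.

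Grazed tolerant plants were compared with ungrazed tolerant plants to find transcripts that respond to grazing, and "with grazing" below stands for this comparison of 2 libraries. Of the 148 members above the floor of 3 fragments, 29 (19.6%) were called higher in the grazed library, 10 (6.76%) lower, and 109 stayed within 2-fold. Among legume-matched transcripts 15.0% were called higher and 8.47% lower, and among all transcripts 15.7% higher and 24.5% lower. The median log2 ratio of the members was 0.27, against 0.12 over legume-matched transcripts. The members as a whole thus stood close to other legume transcripts, and the larger differences lay in particular steps of the pathway.

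Intolerant grazed plants were compared with tolerant grazed plants to find transcripts that differ between the populations under grazing. Of 154 members above the floor, 21 (13.6%) were called higher in the intolerant library, 17 (11.0%) lower, and 116 stayed within 2-fold. The same call took in 22.3% higher and 13.1% lower among legume-matched transcripts, and 26.0% higher and 21.1% lower among all transcripts. Counts of single blocks and lists below are to be read beside the legume-matched shares of their comparison. The median log2 ratio was 0.13 for members and 0.28 for legume-matched transcripts. Over the 48423 transcripts that reached 1 FPKM in all libraries the median log2 ratio was 0.24 in this comparison and 0.09 in the grazing comparison. When each ratio was taken relative to that median, 16 members (10.4%) were higher and 25 (16.2%) lower in intolerant plants, beside 17.1% higher and 16.6% lower among legume-matched transcripts. Both comparisons share the tolerant grazed library, so a value that is high or low there enters both with opposite sign.

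**Figure D1:**
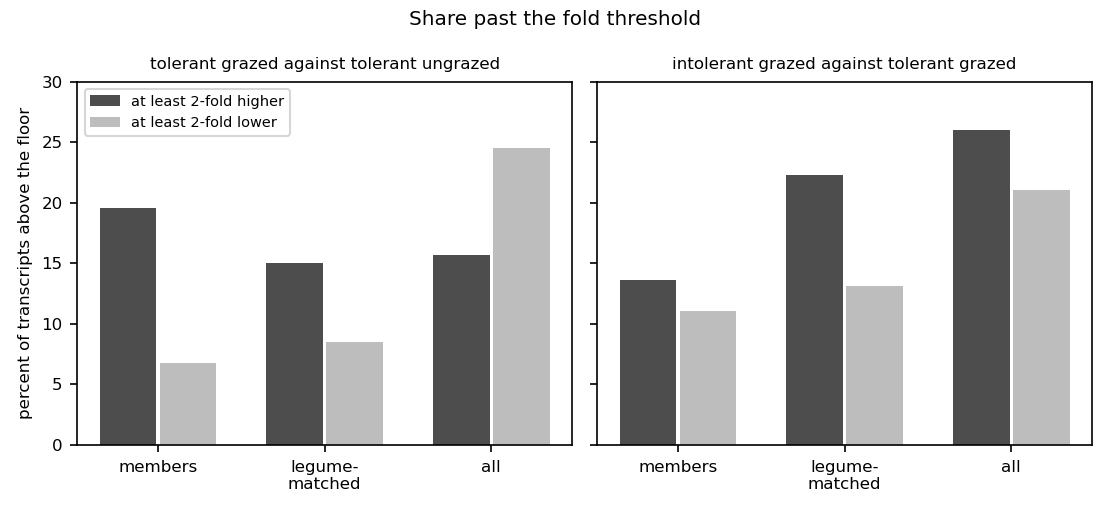
Percent of transcripts above the floor that were at least 2-fold higher or lower in FPKM, for the members, the legume-matched transcripts and all transcripts; bars start at 0. In tolerant grazed against tolerant ungrazed plants 19.6% of members were higher against 15.0% of legume-matched transcripts, and in intolerant grazed against tolerant grazed plants 13.6% against 22.3%.

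The mevalonate pathway was the block with the largest share of members called higher in grazed than in ungrazed tolerant plants. Its 11 members do not include HMG-CoA reductase, which is followed separately below. They held 4594 fragments in intolerant grazed, 4459 in tolerant grazed and 2301 in tolerant ungrazed plants. Between the tolerant libraries the summed ratio was 1.95-fold (log2 0.97, interval 0.89 to 1.04). In that comparison 6 of 11 members (54.5%) were called higher and 0 lower, beside 15.0% higher among legume-matched transcripts. Of the 6, 3 are contigs of the cluster CL6196, so the calls can come from fewer genes. Both grazed libraries lay well above the ungrazed one, and between them 0 of 11 members passed the fold. The log2 ratio of the grazed sums was 0.07, and it was -0.17 relative to the median transcript.

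HMG-CoA synthase joins acetyl units into hydroxymethylglutaryl-CoA at the head of the route. Its main contig, CL6196.Contig1_All, had 24.6 FPKM in intolerant grazed, 17.6 in tolerant grazed and 7.27 in tolerant ungrazed plants, and rose 2.42-fold in the grazed tolerant library (log2 1.28, interval 1.09 to 1.47). CL6196.Contig3_All had 34.9, 21.6 and 6.95 FPKM in that order of groups and rose 3.11-fold. CL6196.Contig2_All had 14.3, 21.7 and 9.73 FPKM and rose 2.23-fold. All 3 contigs of the cluster were thus lowest in the ungrazed library, while the grazed libraries ranked differently from contig to contig. Summed over the cluster, the fragments per 1000000 were 113 in intolerant grazed, 92.1 in tolerant grazed and 36.5 in tolerant ungrazed plants. Contigs of 1 assembly cluster share sequence, so unique alignment could have split fragments among them, and the value of a single contig is less certain than the sum.

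Mevalonate kinase adds the first phosphate to mevalonate. Unigene19167_All had 21.3 FPKM in intolerant grazed, 28.2 in tolerant grazed and 13.98 in tolerant ungrazed plants, a grazing ratio of 2.02-fold (log2 1.01, interval 0.76 to 1.27). Unigene11434_All had 5.57, 7.28 and 2.53 FPKM and rose 2.87-fold. The other two, CL6299.Contig2_All and CL6299.Contig1_All, had tolerant grazed over tolerant ungrazed log2 ratios of 0.59 and 0.13 and stayed within the threshold. In intolerant against tolerant grazed plants all 4 were within the fold, with log2 ratios from -0.41 to 0.20.

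Phosphomevalonate kinase and diphosphomevalonate decarboxylase complete the route to isopentenyl diphosphate. The kinase Unigene6499_All had 6.69 FPKM in intolerant grazed, 5.88 in tolerant grazed and 2.46 in tolerant ungrazed plants and rose 2.39-fold with grazing. The other kinase transcript, Unigene15416_All, had 7.12, 7.84 and 4.78 FPKM, with a log2 ratio of 0.72 (interval 0.39 to 1.05). The decarboxylase Unigene1272_All had 31.0, 34.1 and 22.2 FPKM and a log2 ratio of 0.62 (interval 0.50 to 0.75). These 3 transcripts were lowest in ungrazed plants too, though only Unigene6499_All passed the fold.

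HMG-CoA reductase, the regulated step between HMG-CoA synthase and mevalonate kinase, is spelled in another way in the annotation and was therefore followed as a separate list of 11 transcripts. The list held 8521 fragments in intolerant grazed, 8157 in tolerant grazed and 6370 in tolerant ungrazed plants, more than the members of the mevalonate block in each library. Its sum had a log2 ratio of 0.37 (interval 0.32 to 0.42) between the tolerant libraries, smaller than that of the block. In grazed against ungrazed tolerant plants 2 of the 11 were called higher and 1 lower. The most abundant, CL915.Contig3_All, had 95.2 FPKM in intolerant grazed, 87.1 in tolerant grazed and 43.8 in tolerant ungrazed plants, a log2 ratio of 0.99 between the tolerant libraries (interval 0.92 to 1.06) that fell just short of the threshold. A contig of the same cluster singled out after its values were seen, CL915.Contig1_All, went the other way, with 24.6, 10.9 and 49.7 FPKM. In intolerant against tolerant grazed plants 3 of the 11 were higher and 3 lower.

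HMG-CoA lyase splits the same intermediate during leucine breakdown and matched the rule by name only. Unigene26641_All had 12.7 FPKM in intolerant grazed, 5.78 in tolerant grazed and 5.19 in tolerant ungrazed plants and was 2.19-fold higher in the intolerant grazed library. CL3848.Contig1_All had 7.29, 9.50 and 7.04 FPKM and stayed within the fold in both comparisons.

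**Figure D2:**
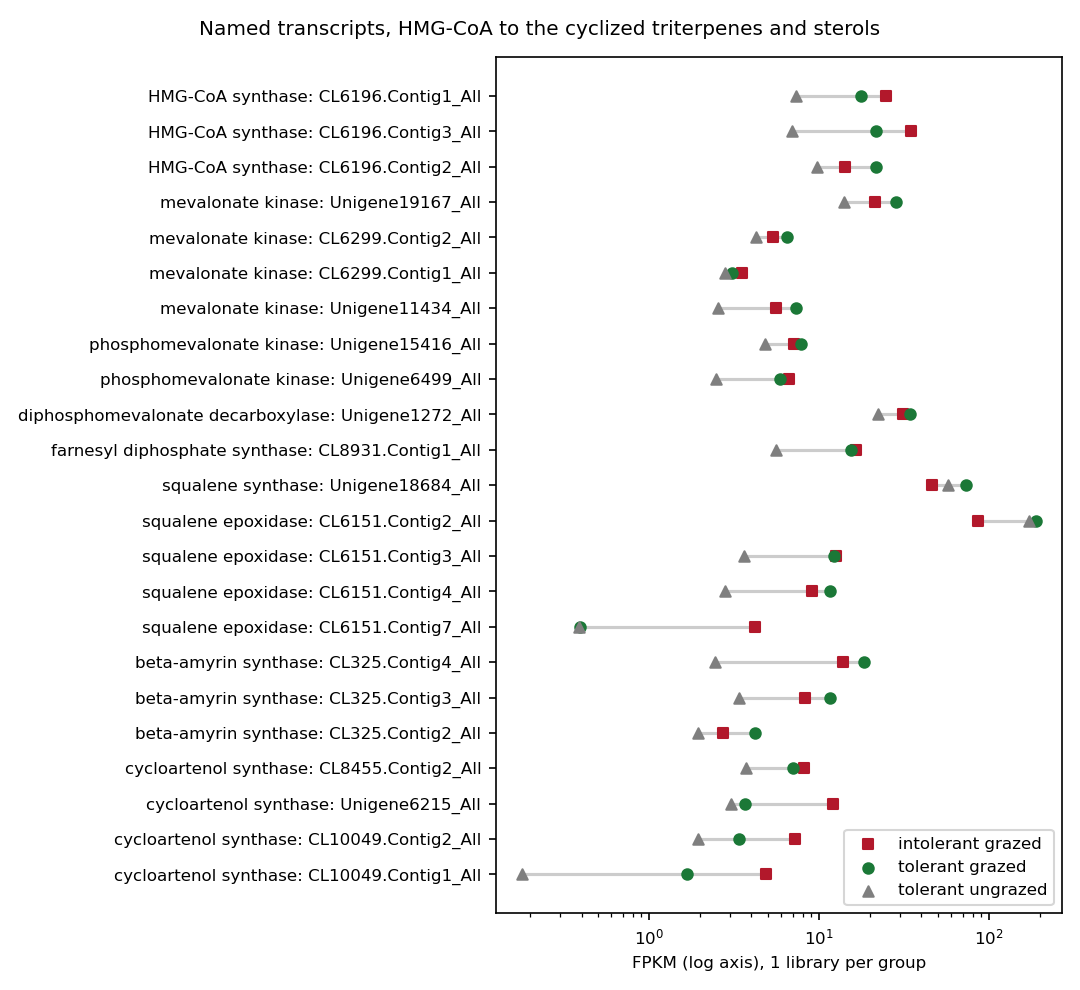
FPKM on a log axis of the named transcripts from HMG-CoA synthase to the cyclases, 1 point per library (squares intolerant grazed, circles tolerant grazed, triangles tolerant ungrazed). The ungrazed point lies lowest for most transcripts, as for CL325.Contig4_All at 2.44 against 18.3 FPKM in tolerant grazed plants, whereas for the squalene epoxidase CL6151.Contig2_All the intolerant grazed point is lowest at 86.3.

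The MEP block differed chiefly between the grazed libraries. Of its 10 members 7 were called lower and 0 higher in intolerant than in tolerant grazed plants, while 2 were higher and 1 lower in grazed than in ungrazed tolerant plants. DXP reductoisomerase, which makes methylerythritol phosphate, was represented by Unigene6506_All at 8.47 FPKM in intolerant grazed, 26.4 in tolerant grazed and 22.03 in tolerant ungrazed plants. In the intolerant library it fell 3.12-fold against tolerant grazed plants (log2 -1.64, interval -1.85 to -1.44). Unigene10625_All, a short transcript of the same enzyme, had 15.3, 50.2 and 22.5 FPKM, fell 3.28-fold in intolerant plants and rose 2.23-fold in grazed over ungrazed tolerant plants.

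DXP synthase, the first enzyme of the MEP route, was split by transcript. The most abundant, CL4191.Contig1_All, had 18.7 FPKM in intolerant grazed, 14.01 in tolerant grazed and 9.99 in tolerant ungrazed plants, within the fold in both comparisons. Its cluster summed to 59.3, 42.3 and 31.2 fragments per 1000000. The 5 DXP synthase members outside this cluster were all called lower in intolerant than in tolerant grazed plants. Of them 3 were matched to the same Medicago truncatula locus, MTR_8g068300, and may be fragments of 1 gene, so the calls of the MEP block can come from fewer genes. Unigene2170_All, of that locus, had 1 fragment in intolerant grazed, 7 in tolerant grazed and 6 in tolerant ungrazed plants.

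Among these 5, Unigene16021_All had 0.503 FPKM in intolerant grazed, 3.54 in tolerant grazed and 6.04 in tolerant ungrazed plants, 7.03-fold lower in the intolerant library (log2 -2.81, interval -4.20 to -1.67). Unigene51864_All had 1.35, 7.42 and 6.05 FPKM and was 5.51-fold lower there. Unigene3797_All had 0.760, 2.90 and 9.47 FPKM, 3.81-fold lower in intolerant than in tolerant grazed plants and 3.27-fold lower in grazed than in ungrazed tolerant plants. The intolerant library was the lowest for all 3 and held 7, 10 and 8 fragments of them. Summed over all 8 members, DXP synthase had 60.96, 50.02 and 42.2 fragments per 1000000, most of them from the CL4191 cluster, while the sum of FPKM, in which short transcripts weigh more, was 42.3, 45.6 and 44.1. The 2 transcripts listed for later MEP steps and the 1 for isopentenyl diphosphate isomerase, which interconverts the 5-carbon isomers, stayed within the fold in both comparisons. Unigene17881_All, for the enzyme that forms hydroxymethylbutenyl diphosphate, had 34.04, 34.6 and 29.5 FPKM in intolerant grazed, tolerant grazed and tolerant ungrazed plants, and the isomerase Unigene15354_All had 47.1, 53.4 and 53.2 FPKM.

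Prenyl diphosphate synthases join the 5-carbon units into chains. Farnesyl diphosphate synthase, which feeds squalene and sesquiterpenes, had 1 member, CL8931.Contig1_All, at 16.4 FPKM in intolerant grazed, 15.4 in tolerant grazed and 5.58 in tolerant ungrazed plants. It rose 2.76-fold with grazing (log2 1.46, interval 1.22 to 1.72), and the grazed libraries had a log2 ratio of 0.09 (interval -0.09 to 0.27) that changed sign when taken relative to the median transcript. It was lowest in the ungrazed library, as were the HMG-CoA synthase contigs and the mevalonate and phosphomevalonate kinase transcripts named above.

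Geranylgeranyl diphosphate synthase, which supplies carotenoids, chlorophyll and gibberellins, stayed within the fold in its main transcript. Unigene6801_All had 44.6 FPKM in intolerant grazed, 34.1 in tolerant grazed and 34.5 in tolerant ungrazed plants, with log2 ratios of -0.02 for grazed over ungrazed tolerant plants and 0.39 for intolerant over tolerant grazed plants. The shorter Unigene21541_All had 15.0, 15.2 and 7.85 FPKM, and its tolerant grazed over tolerant ungrazed log2 ratio of 0.96 (interval 0.52 to 1.40) fell just short of the threshold. Geranylgeranyl reductase, which saturates the side chain of chlorophyll and tocopherol, had 48.2, 38.4 and 39.3 FPKM in its main transcript Unigene12344_All, within the fold. Of its 4 members 1 was called, the low Unigene4603_All, with 23, 41 and 20 fragments and a tolerant grazed over tolerant ungrazed log2 ratio of 1.05 (interval 0.24 to 1.90).

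The 2 transcripts named for geranyl diphosphate synthase were rare. Both carry the KEGG number of geranylgeranyl diphosphate synthase (K13789), so the annotation does not settle which diphosphate they make. Unigene4300_All had 22 fragments in intolerant grazed, 48 in tolerant grazed and 13 in tolerant ungrazed plants, and was 3.72-fold higher in grazed than in ungrazed tolerant plants (log2 1.90, interval 0.99 to 2.90) and 2.15-fold lower in intolerant than in tolerant grazed plants. Unigene30838_All had 8, 16 and 0 fragments, at least 5.37-fold higher in grazed than in ungrazed tolerant plants against a floor of 3 fragments per library. The tolerant grazed library was the highest for both.

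The squalene and cyclization block had 32 members. Its fragments summed to 10255 in intolerant grazed, 16554 in tolerant grazed and 12845 in tolerant ungrazed plants. With grazing, 8 of 30 members above the floor (26.7%) were called higher and 1 lower. In intolerant against tolerant grazed plants 9 of 32 (28.1%) were called higher and 3 lower. Among legume-matched transcripts 22.3% were called higher in that comparison. The sum of the block was nevertheless lower (log2 -0.67, interval -0.70 to -0.63). The most abundant transcript of the block was among the lower ones. The summed fragments of squalene synthase and of beta-amyrin synthase were lower as well, while those of cycloartenol synthase were higher.

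Squalene synthase, which couples farnesyl units head to head, had 1 member, Unigene18684_All, with 46.5 FPKM in intolerant grazed, 73.6 in tolerant grazed and 57.0 in tolerant ungrazed plants. Its log2 ratio was 0.37 (interval 0.29 to 0.44) for grazed over ungrazed tolerant plants and -0.66 (interval -0.74 to -0.58) for intolerant over tolerant grazed plants, both within the fold.

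Squalene epoxidase, which makes the oxidosqualene shared by saponins and sterols, had the most abundant transcript of all members. CL6151.Contig2_All had 86.3 FPKM in intolerant grazed, 189.7 in tolerant grazed and 172.8 in tolerant ungrazed plants. It was 2.20-fold lower in intolerant than in tolerant grazed plants (log2 -1.14, interval -1.19 to -1.08) and almost level between the tolerant libraries (log2 0.13). Other contigs of the cluster had other orders. CL6151.Contig3_All had 12.6, 12.2 and 3.64 FPKM and CL6151.Contig4_All had 9.07, 11.6 and 2.79 FPKM, so that they rose 3.35-fold and 4.16-fold in grazed over ungrazed tolerant plants. CL6151.Contig7_All had 53 fragments in intolerant grazed, 5 in tolerant grazed and 5 in tolerant ungrazed plants, 10.8-fold higher in the intolerant library (log2 3.43, interval 2.12 to 5.11). CL6151.Contig2_All and CL6151.Contig7_All thus differed in opposite directions between the grazed libraries, and over the cluster the fragments per 1000000 were 210, 429 and 383.

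**Figure D3:**
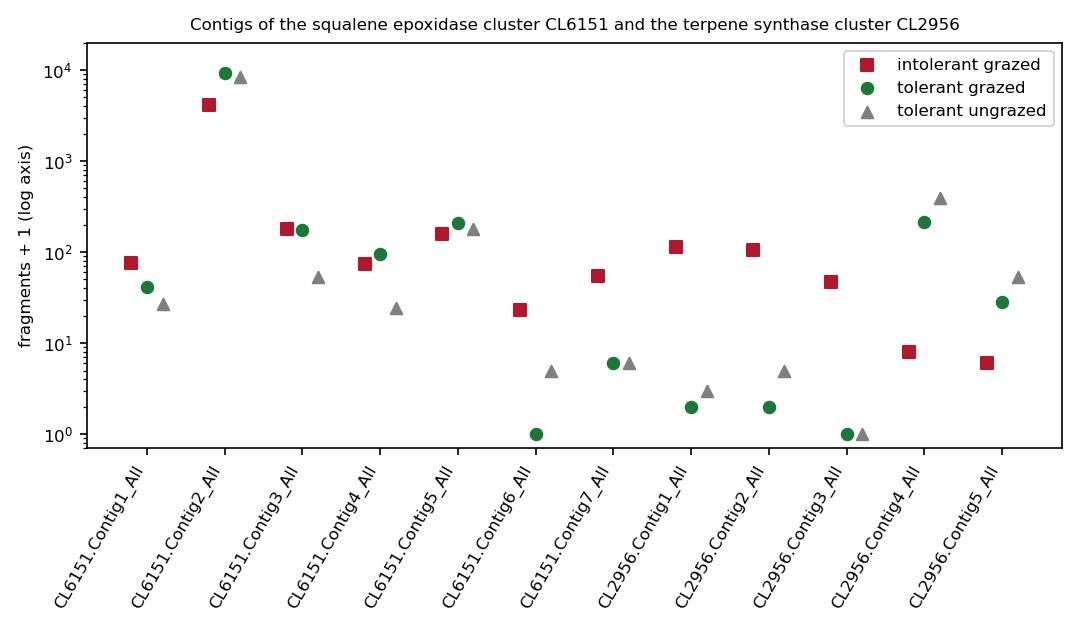
Fragments plus 1 on a log axis for each contig of the squalene epoxidase cluster CL6151 and the terpene synthase cluster CL2956, 1 point per library (squares intolerant grazed, circles tolerant grazed, triangles tolerant ungrazed). CL2956.Contig4_All had 7 fragments in intolerant grazed plants against 214 in tolerant grazed plants, whereas CL2956.Contig1_All had 113 against 1.

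Beta-amyrin synthase, the entry to the saponins, was called higher with grazing in 3 of the 5 contigs of its main cluster. The 12 members held 1715 fragments in intolerant grazed, 2278 in tolerant grazed and 674 in tolerant ungrazed plants, and the sum was 3.41-fold higher in grazed than in ungrazed tolerant plants (log2 1.77, interval 1.64 to 1.89), with 4 of 11 members above the floor called higher and 0 lower. The sum of FPKM was 57.30 in tolerant grazed and 25.86 in tolerant ungrazed plants, a log2 ratio of 1.15, so the size of the difference depends on how the members are weighted. In intolerant against tolerant grazed plants the log2 ratio of the sums was -0.39 (interval -0.48 to -0.30), with 2 of 12 members called higher and 2 lower.

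The 2750-base contig CL325.Contig4_All had 13.8 FPKM in intolerant grazed, 18.3 in tolerant grazed and 2.44 in tolerant ungrazed plants and rose 7.52-fold with grazing (log2 2.91, interval 2.67 to 3.16). CL325.Contig3_All had 8.25, 11.6 and 3.36 FPKM and rose 3.46-fold, and CL325.Contig2_All had 2.72, 4.21 and 1.94 FPKM and rose 2.17-fold. The tolerant grazed library was highest and the ungrazed library lowest for all 3. CL325.Contig5_All, named here because it did not follow them, had 4.73, 5.45 and 4.24 FPKM. The 5 contigs of the cluster summed to 71.8, 95.6 and 25.5 fragments per 1000000.

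Cytochrome P450 enzymes oxidize beta-amyrin into the sapogenins, and 20 transcripts named for the CYP93E2 and CYP72A families were followed as a separate list, not all of which have a known role in saponins. With grazing 5 of 20 were called higher and 2 lower, and in intolerant against tolerant grazed plants 3 of 19 were higher and 3 lower. Unigene18788_All, named for CYP93E2, which hydroxylates beta-amyrin in Medicago truncatula, was the most abundant at 132.7 FPKM in intolerant grazed, 127.4 in tolerant grazed and 22.5 in tolerant ungrazed plants. It rose 5.65-fold in grazed over ungrazed tolerant plants (log2 2.50, interval 2.40 to 2.60), and the grazed libraries differed by a log2 ratio of 0.06. The 3 transcripts named for CYP72A68, singled out after their values were seen and known in Medicago truncatula for oxidizing oleanolic acid, summed to 294, 867 and 311 fragments. Their tolerant grazed sum was 2.81-fold above the tolerant ungrazed one. The grazed tolerant library thus stood above the others for CYP72A68, whereas CYP93E2 was high in both grazed libraries. Other CYP72A transcripts had other orders, as Unigene14475_All, named for CYP72A67, with 130, 332 and 460 fragments. Over the list of 20, 13 had a log2 ratio above 0 with grazing and 7 below.

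Cycloartenol synthase opens the sterol branch from the same substrate. Its 7 members summed to 65.4 fragments per 1000000 in intolerant grazed, 41.0 in tolerant grazed and 26.9 in tolerant ungrazed plants. In intolerant against tolerant grazed plants 4 of 7 were called higher and 0 lower, and the sum had a log2 ratio of 0.67 (interval 0.55 to 0.80). With grazing 2 of 7 were higher and 0 lower, and the log2 ratio of the sum was 0.60 (interval 0.46 to 0.75). The annotations of these members disagree, since 3 carry the KEGG number of cycloartenol synthase (K01853) and 4 that of beta-amyrin synthase (K15813). The first 3 held 691, 543 and 278 fragments in intolerant grazed, tolerant grazed and tolerant ungrazed plants, and the other 4 held 767, 385 and 337. Each set gave 2 of the calls between the grazed libraries, and both grazing calls were in the first.

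The longest cycloartenol synthase transcript, CL8455.Contig2_All, had 8.18 FPKM in intolerant grazed, 6.98 in tolerant grazed and 3.72 in tolerant ungrazed plants, within the fold in both comparisons. Unigene6215_All had 12.1, 3.64 and 3.02 FPKM and was 3.32-fold higher in intolerant than in tolerant grazed plants (log2 1.73, interval 1.40 to 2.07). CL10049.Contig2_All had 7.21, 3.36 and 1.93 FPKM and was 2.15-fold higher there. CL10049.Contig1_All had 80, 28 and 3 fragments, 2.90-fold higher in intolerant than in tolerant grazed plants and 9.41-fold higher in grazed than in ungrazed tolerant plants (log2 3.23, interval 1.54 to 5.60). The intolerant library was highest for all 4.

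**Figure D4:**
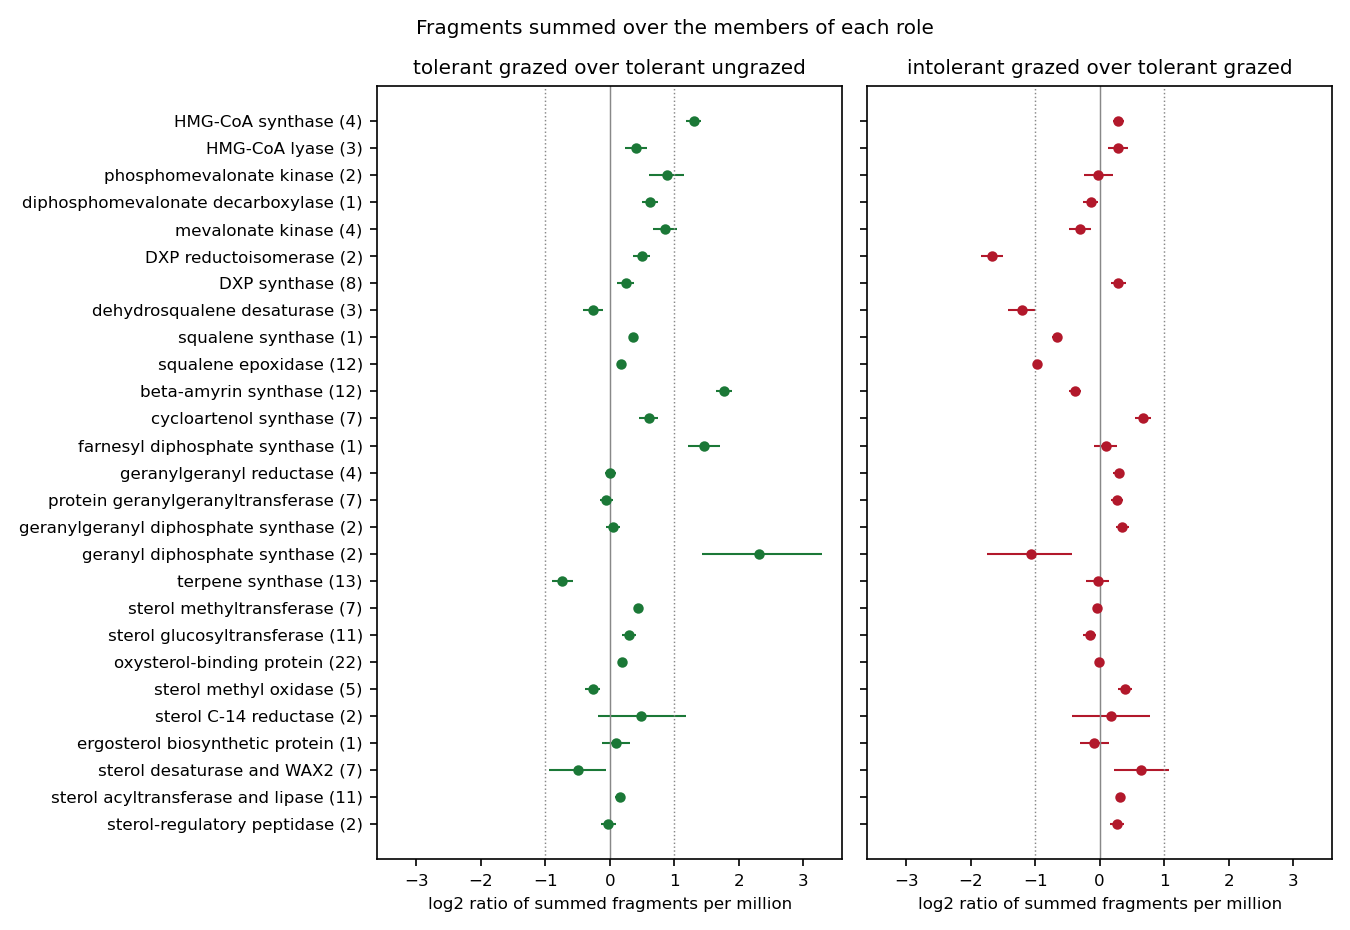
Log2 ratio of the fragments per 1000000 summed over the members of each role (number of members in brackets), with exact 95% counting intervals; dotted lines mark 2-fold. In tolerant grazed over tolerant ungrazed plants beta-amyrin synthase lies at 1.77 and HMG-CoA synthase at 1.30, and in intolerant grazed over tolerant grazed plants DXP reductoisomerase lies at -1.66.

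Sterol synthesis after cycloartenol varied less. Of its 26 members, 3 of 25 above the floor were called higher and 0 lower with grazing, and 1 was higher and 1 lower in intolerant than in tolerant grazed plants. Sterol 24-C methyltransferase, which adds the side-chain carbons typical of plant sterols, was most abundant as Unigene18831_All, with 96.1 FPKM in intolerant grazed, 114.1 in tolerant grazed and 79.0 in tolerant ungrazed plants. Its log2 ratios were 0.53 for grazed over ungrazed tolerant plants and -0.25 for intolerant over tolerant grazed plants. All 7 methyltransferase members stayed within the fold in both comparisons.

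Sterol methyl oxidase, which removes methyl groups from the ring, was led by Unigene9099_All at 25.4 FPKM in intolerant grazed, 19.2 in tolerant grazed and 26.4 in tolerant ungrazed plants, with a log2 ratio of -0.46 (interval -0.60 to -0.32) with grazing. The sterol C-14 reductase CL2647.Contig1_All had 43, 36 and 23 fragments and the ergosterol biosynthetic protein Unigene23976_All had 15.7, 16.6 and 15.4 FPKM, both within the fold. Sterol glucosyltransferases attach glucose to finished sterols. CL472.Contig1_All had 14.5, 18.3 and 15.2 FPKM, and Unigene16099_All had 10.6, 5.59 and 2.26 FPKM and rose 2.47-fold with grazing.

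Oxysterol-binding proteins carry sterols and lipids between membranes and matched by name. Of 22 members, 3 (13.6%) were called higher and 1 (4.55%) lower with grazing, beside 15.0% and 8.47% of legume-matched transcripts. In intolerant against tolerant grazed plants 1 was called higher and 0 lower. CL4737.Contig1_All, the most abundant, had 50.7 FPKM in intolerant grazed, 64.5 in tolerant grazed and 56.8 in tolerant ungrazed plants. CL9149.Contig2_All had 20.8, 9.86 and 9.42 FPKM and was 2.11-fold higher in the intolerant library. CL12104.Contig1_All and CL1133.Contig2_All rose 2.37-fold and 2.45-fold with grazing, with 6.79, 10.1 and 4.25 FPKM for CL12104.Contig1_All and 3.93, 5.43 and 2.22 FPKM for CL1133.Contig2_All. Of the family, 18 of 22 stayed within 2-fold with grazing and 21 of 22 between the grazed libraries.

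Terpene synthases were the block in which calls were lower, and none higher, with grazing. Their 13 members held 487 fragments in intolerant grazed, 506 in tolerant grazed and 848 in tolerant ungrazed plants. Of the 13, 0 were called higher and 5 lower in grazed than in ungrazed tolerant plants, and the sum had a log2 ratio of -0.73 (interval -0.90 to -0.57). The 5 called lower had 1 to 6 fragments in tolerant grazed and 5 to 24 in tolerant ungrazed plants, so those calls rest on low counts, and 388 of the 848 ungrazed fragments came from a single contig that stayed within the fold.

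That contig, CL2956.Contig4_All, named for a wound-inducible cytosolic terpene synthase, had 0.223 FPKM in intolerant grazed, 6.72 in tolerant grazed and 12.1 in tolerant ungrazed plants. It was 30.1-fold lower in intolerant than in tolerant grazed plants (log2 -4.91, interval -6.24 to -3.84), with a grazing log2 ratio of -0.85 (interval -1.09 to -0.60). Unigene27871_All, named for a wound-inducible chloroplast terpene synthase, had 5.92, 2.58 and 2.49 FPKM and was 2.30-fold higher in the intolerant library.

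The other contigs of the cluster CL2956 were looked at after these values were seen. CL2956.Contig5_All had 5 fragments in intolerant grazed, 27 in tolerant grazed and 52 in tolerant ungrazed plants, like CL2956.Contig4_All. The remaining 3, which carry the name of delta-cadinene synthase, a sesquiterpene enzyme, and are outside the rule, had the reverse pattern. CL2956.Contig1_All had 113, 1 and 2 fragments, CL2956.Contig2_All had 104, 1 and 4, and CL2956.Contig3_All had 46, 0 and 0. Summed over all 5 contigs, the cluster held 275, 243 and 446 fragments, with a log2 ratio of 0.20 (interval -0.05 to 0.46) for intolerant over tolerant grazed plants, so that the 30.1-fold difference of the single contig was not seen in the sum of the sequence-related forms. The list of 5 other named terpene synthases includes these 3 delta-cadinene synthase contigs, so it is not a separate result. It held 340, 5 and 8 fragments, and all 5 were called higher in intolerant than in tolerant grazed plants. Only 1 of the 5 passed the floor of 3 fragments in a tolerant library. The rest entered the comparison through the intolerant library and could only be called higher.

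**Figure D5:**
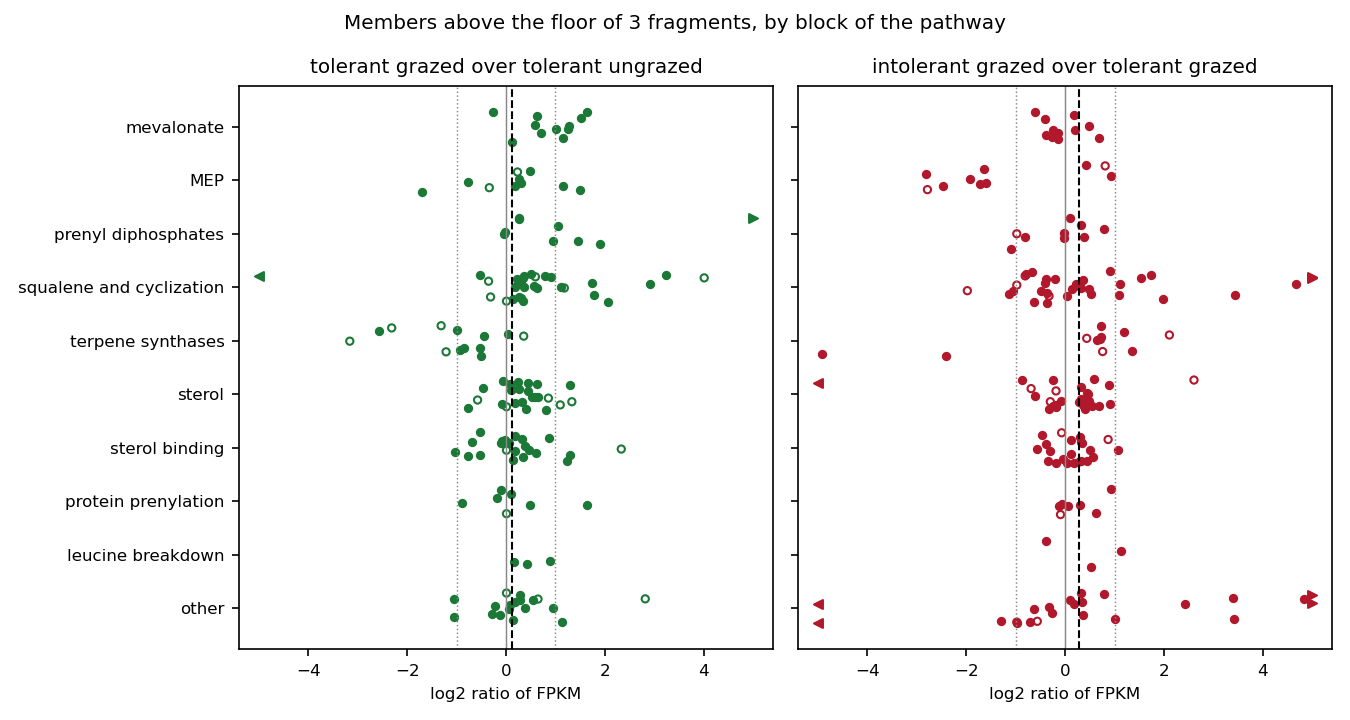
Log2 ratio of FPKM of each member above the floor by block of the pathway (open circles have fewer than 20 fragments in both libraries, triangles lie beyond 5 in size, vertical jitter has no meaning); the dashed line is the median of legume-matched transcripts, 0.12 at left and 0.28 at right, and dotted lines mark 2-fold. In tolerant grazed over tolerant ungrazed plants 6 of 11 mevalonate members lie past the right dotted line, and in intolerant grazed over tolerant grazed plants 7 of 10 MEP members lie past the left one.

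Protein prenylation enzymes, which attach geranylgeranyl groups to small GTPases, had 7 members, of which 1 was called higher with grazing and 0 passed the fold between the grazed libraries. Their main transcript, CL10644.Contig1_All, had 11.6 FPKM in intolerant grazed, 11.1 in tolerant grazed and 12.6 in tolerant ungrazed plants.

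The remaining 23 members are named for dehydrosqualene desaturase, sterol desaturases with the cuticle protein WAX2, sterol acyltransferases and lipases, and a sterol-regulatory peptidase. Of them 6 (26.1%) were called higher and 3 (13.0%) lower in intolerant than in tolerant grazed plants. Among legume-matched transcripts these shares were 22.3% and 13.1%. CL4067.Contig3_All, named for dehydrosqualene desaturase, had 6.98 FPKM in intolerant grazed, 17.0 in tolerant grazed and 20.6 in tolerant ungrazed plants. This transcript was 2.44-fold lower in the intolerant library (log2 -1.29, interval -1.52 to -1.07). It carries the KEGG number K00485. Its role was read from the name alone, and whether it encodes that enzyme was not tested. CL7614.Contig2_All, named for a sterol desaturase but with the KEGG number K15404 that the WAX2 transcripts carry, had 0, 42 and 88 fragments. It was at least 13.8-fold lower in intolerant than in tolerant grazed plants, against a floor of 3 fragments per library, and 2.08-fold lower in grazed than in ungrazed tolerant plants. The second contig of that cluster was also called lower in intolerant plants. The other 5 transcripts named for a sterol desaturase or WAX2 were all called higher in intolerant than in tolerant grazed plants. They had 10 to 37 fragments in intolerant grazed and 0 to 7 in tolerant grazed plants. Of these only Unigene39756_All passed the floor of 3 fragments in a tolerant library. The rest entered the comparison through the intolerant library and could only be called higher.

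The lipases and the peptidase were steadier. Unigene27512_All, named for a group XV phospholipase A2, had 72.04 FPKM in intolerant grazed, 57.2 in tolerant grazed and 54.0 in tolerant ungrazed plants, and the peptidase CL4879.Contig2_All had 28.4, 22.01 and 23.9. Unigene16263_All, named for a neutral cholesterol ester hydrolase, had 13.0, 10.3 and 4.71 FPKM and rose 2.19-fold with grazing. It carries the KEGG number K14493, and whether it encodes the enzyme of its name was not tested.

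Neighbouring hormone and pigment genes were followed as lists of transcripts outside the rule. Of 7 gibberellin precursor enzymes 4 were called higher and 0 lower with grazing, and 2 higher and 2 lower in intolerant than in tolerant grazed plants. Their most abundant, by fragments, Unigene18370_All (ent-kaurene oxidase), had 13.0 FPKM in intolerant grazed, 18.6 in tolerant grazed and 10.9 in tolerant ungrazed plants. Of 41 carotenoid transcripts 5 of 39 (12.8%) were higher and 5 lower with grazing. In intolerant against tolerant grazed plants 12 of 41 (29.3%) were higher and 5 (12.2%) lower, beside 22.3% and 13.1% of legume-matched transcripts. Zeaxanthin epoxidase CL1101.Contig2_All, the carotenoid transcript with the most fragments, had 22.7, 28.0 and 24.8 FPKM. The brassinosteroid list held by name almost only receptor kinases and signalling proteins, not enzymes of synthesis. Of its 21 transcripts 11 were called lower and 3 higher in intolerant than in tolerant grazed plants, with 0 higher and 2 of 20 lower with grazing. The most abundant of them, the receptor Unigene23728_All, had 35.8, 27.1 and 19.7 FPKM. The 1 entry named for biosynthesis, Unigene27527_All, had a log2 ratio of -0.52 for intolerant over tolerant grazed plants, within the fold. For tolerant grazed over tolerant ungrazed plants its log2 ratio was 0.99, just short of the threshold. Each list is small and its counts carry no test.

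Across all members, the library with the highest FPKM was intolerant grazed for 72 of 156, tolerant grazed for 58 and tolerant ungrazed for 26. Of legume-matched transcripts 54.7% were highest in intolerant grazed, 24.9% in tolerant grazed and 20.4% in tolerant ungrazed plants, and the corresponding shares of members were 46.2%, 37.2% and 16.7%. At the level of summed fragments, the members took 2178 fragments per 1000000 in intolerant grazed, 2371 in tolerant grazed and 1945 in tolerant ungrazed plants. Member transcripts were short, with a median of 672 bases, 60 of 156 were under 500 bases, and 23 had fewer than 20 fragments in every library, so that calls at low counts carry wide intervals.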

How the data were processed

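Messenger RNA of 3 bulks was sequenced by the authors, and clean reads of all libraries were assembled de novo with Trinity and clustered with TGICL. The authors deposited counts of fragments aligned uniquely to each transcript with SOAP without normalization, and FPKM, for which the authors scaled each count by transcript length in kilobases and by the library's total of aligned fragments. Annotation came from blastx and Blast2GO. Tool versions are not given in the sources used here. Because the assembly joined all libraries, contigs of a cluster can be alleles, paralogs or fragments of 1 gene, and a fragment that aligned to several contigs was not counted. All per-sample columns were used (0 left out). No contig sequence was used here.

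The members, their roles and the other gene lists were chosen with earlier results of these data known, and roles were read from annotation names. Log2 ratios of FPKM were computed for 2 comparisons, with 0.01 for an FPKM of 0, a threshold of 1 and a floor of 3 fragments. Transcripts named were, in each role, the one with the most fragments over the libraries and every called member with at least 50 fragments in the higher library, at most 6 a role, plus mevalonate kinase and geranylgeranyl diphosphate synthase transcripts by KEGG number with at least 20 fragments in total. In the other lists the one with the most fragments was named, and exceptions are marked. Alternatives were other minimums, 1 added to every FPKM, rescaling by the median ratio, TPM, a joint Poisson test at an adjusted p of 0.001, a log2 threshold of 2, the longest member of each cluster, synthesis enzymes only and members of at least 500 bases. Summing the contigs of a cluster was an alternative added once the data had been seen. The computations were tested on simulated data. Python 3.11.15, numpy 2.4.6, pandas 2.3.3, scipy 1.17.1 and matplotlib 3.10.9 were used.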

Additional observations from a re-analysis of the deposited data

How the results depend on the processing

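No paired analysis was possible because each group was 1 library, and for the same reason no library could be left out. In tolerant grazed against tolerant ungrazed plants the 29 members called higher became 19 with 1 added to every FPKM, 7 at a log2 threshold of 2, 19 with the longest member of each cluster and 16 among members of at least 500 bases. The 10 called lower became 5 with at least 20 fragments, 3 with 1 added, 3 with the joint Poisson test, 4 at a log2 threshold of 2 and 1 among members of at least 500 bases. The median log2 ratio of 0.27 was 0.38 with TPM. In intolerant grazed against tolerant grazed plants the 21 called higher became 12 at a log2 threshold of 2, 13 with synthesis enzymes only and 8 among members of at least 500 bases. The 17 called lower became 11 with the joint Poisson test, 8 at a log2 threshold of 2 and 6 among members of at least 500 bases. The median of 0.13 became -0.11 after rescaling by the median ratio, and with TPM 20 were higher and 21 lower. The other 45 alternatives for these counts and medians moved them by less than 1.5 times or stayed within the spread of the members' median. With the contigs of each cluster summed, chosen after the data were seen, 20 of 110 were higher and 8 lower with grazing, and 17 of 116 were higher and 14 lower in intolerant plants. For single named transcripts 89 values moved beyond their counting interval and 235 did not. Changes of sign were not counted apart, and the ratio of CL8931.Contig1_All between the grazed libraries changed sign relative to the median transcript. The 1 library per group limits all of these values.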

Other observations

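A further 14 transcripts carried the words of the rule without a legume match in both searches and were left out of the comparisons. The most abundant, CL12047.Contig3_All, matched a beta-amyrin 11-oxidase of licorice (Glycyrrhiza uralensis), and had 338 fragments in intolerant grazed, 1064 in tolerant grazed and 1263 in tolerant ungrazed plants. Its FPKM was 8.40, 26.04 and 30.7 in that order of groups. Its level was lowest in the intolerant library, as was that of the squalene epoxidase CL6151.Contig2_All. Among the rarest, Unigene48797_All, Unigene49521_All, Unigene48575_All, Unigene57128_All and Unigene57503_All were singled out by their values. They matched tomato, the brown alga Ectocarpus siliculosus or the green alga Coccomyxa subellipsoidea. They had 0 fragments in intolerant grazed, 0 in tolerant grazed and 7 to 21 in tolerant ungrazed plants. Other rare entries differed, as CL3673.Contig1_All with 2, 14 and 0 fragments and Unigene55090_All with 1, 7 and 11.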
